A study of Mus musculus with 2 samples.

Results

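Guanylate-binding proteins (GBPs) were examined in mouse splenic antigen-presenting cells (APCs), the cells that display peptides to T cells. The members were chosen by gene name, with earlier results of these data known. Every probe set of the array was used whose single platform symbol was Gbp2, Gbp2b (also known as Gbp1), Gbp3, Gbp6, Gbp7 or Gbp8. This gave 9 probe sets for 6 genes, of 34945 probe sets with a single symbol for 18194 genes. One further probe set carried the name of a member together with another gene and was not used, and other GBP genes were not analysed here. APCs came from spleens of female wild-type C57BL/6 mice aged 10 weeks. In both groups the culture also held CD4+ T cells with the P25 T cell receptor and lasted overnight, per the series' design text, and either P25 or medium was added. P25 is the peptide that this receptor recognises, which comes from a protein secreted by mycobacteria and is presented on MHC class II. The APCs were enriched after the culture. The RNA on the single Affymetrix array of each group was a mixture from 3 independent experiments, so there was no replicate spread, no p-value was computed and every difference below is a description of these 2 arrays.

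GBPs are large GTPases of the dynamin superfamily whose genes are switched on mainly by interferon-γ and also by type I interferons, in part through interferon regulatory factors. The proteins assemble on the vacuoles of intracellular parasites and bacteria and on bacteria that reach the cytosol, damage those membranes together with immunity-related GTPases, and promote inflammasome activation. Some members carry a lipid (prenyl) anchor at their C terminus. In the mouse genome the family lies in clusters on chromosomes 3 and 5, with Gbp7, Gbp3, Gbp2b and Gbp2 in that order on chromosome 3 and Gbp8 and Gbp6 on chromosome 5.

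All 6 GBP genes had a higher signal with P25 than with medium, by 3.03-fold to 45.3-fold. Gbp6 (45.3-fold) and Gbp2 (21.8-fold) had the largest ratios, Gbp7 followed at 12.3-fold and Gbp8 at 6.30-fold, Gbp2b was at least 4.53-fold higher, and Gbp3 came last at 3.03-fold. Values are MAS5 signals, a linear brightness in arbitrary units, and a signal below 10.3 (the 40th percentile of both arrays, called the floor) was set to that value before a ratio was taken. For a gene with several probe sets, the brightest by mean log2 signal was taken, and a gene counted as measured if its signal passed the floor on 1 array or both. Gbp2b was measured through the P25 array alone and so could only count as higher. Over the 5 GBP genes above the floor on both arrays, 5 were higher with P25 by 2-fold or more, against 9.89% of the 10918 such genes, 4 by 4-fold or more, against 1.41%, and 3 by 8-fold or more, against 0.238%. With Gbp2b the counts were 6, 5 and 3 of 6, against 9.43%, 1.36% and 0.233% of the 12898 measured genes. No GBP gene was lower by 2-fold or more, against 7.22% of measured genes. For so few genes this is near that share, and Gbp2b could not count as lower. The median log2 ratio of the 6 was 3.14, or 8.82-fold, and that of all measured genes was 0.02. Since the ratio of Gbp2b is a lower bound, the median log2 ratio of the other 5 was also taken, which was 3.63, and placing Gbp2b highest of all would give 4.04.

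Gbp2, a prenylated member known for coating the vacuole of Toxoplasma, was read by a pair of probe sets. The brighter one, 1418240_at, had a signal of 4974 with P25 and 228 with medium. The other, 1435906_x_at, had 3640.0 and 189, a ratio of 19.3-fold. Both probe sets were therefore far above the floor on either array, and the P25 array was the high one each time.

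Gbp7, reported to help assemble the phagocyte NADPH oxidase, also had a pair. Probe set 1434380_at had a signal of 2609 with P25 and 211 with medium. Probe set 1425156_at had 1249 and 90.8, a ratio of 13.8-fold. By its ratio Gbp7 ranked 10th among the 10918 genes that passed the floor on both arrays, and Gbp2 ranked 5th.

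Gbp6 had low signals without the peptide. Probe set 1447927_at had a signal of 1719.6 with P25 and 38.0 with medium, and ranked 2nd among those genes. Probe set 1438676_at had 1015.5 and 20.2, a ratio of 50.4-fold. Its medium signals lay near the median of that array (18.4 over all probe sets without controls), a range in which MAS5 ratios are noisy.

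Gbp8, the other member on chromosome 5, had a signal of 437 with P25 and 69.3 with medium on its only probe set (1418776_at), and ranked 38th. Gbp2b was dim on its only probe set, with a signal of 46.6 with P25 and 1.50 with medium (1420549_at). It is the only member whose medium signal was below the floor, so its 4.53-fold is a bound and not a size. Gbp3 had a signal of 1213 with P25 and 399.8 with medium on 1418392_a_at, and its ratio ranked 333rd. Its groups stood closest together of the members, although the P25 array was again the high one. Levels of different probe sets depend on their probes, so brightness is not compared between genes here.

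**Figure D1:**
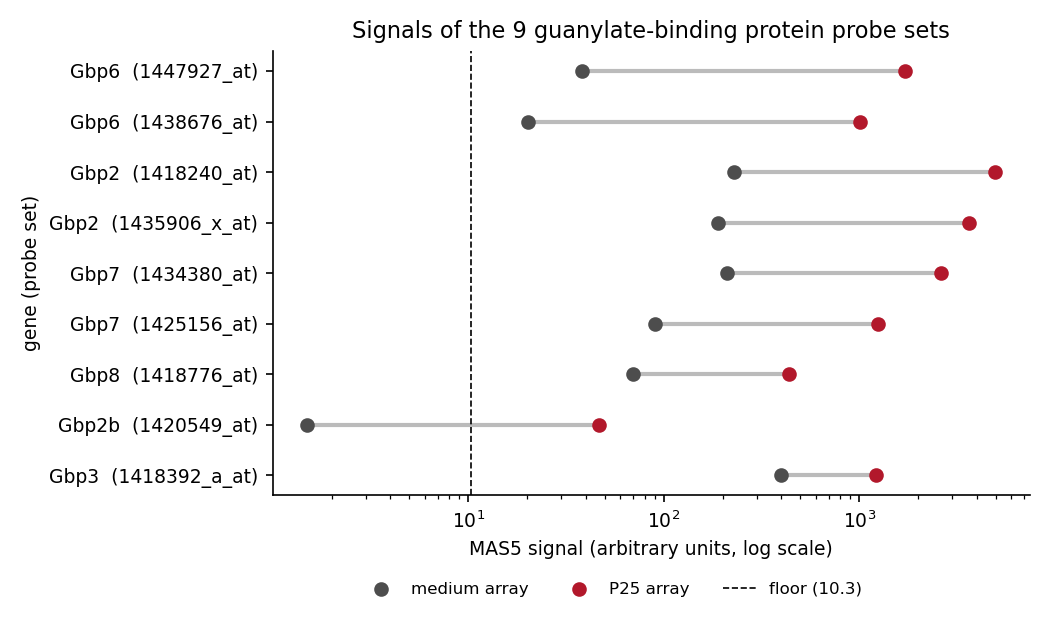
MAS5 signal (log axis) of each GBP probe set on the medium array (grey) and the P25 array (red), 1 array per group, with the floor of 10.3 as a dashed line. The P25 signal was higher for 9 of 9 probe sets, and the medium signal of Gbp2b alone lay below the floor.

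All 9 probe sets passed 2-fold on the higher side, against 9.15% of the 24054 measured probe sets with a single symbol. In the 3 genes with a pair of probe sets, the log2 ratios of the pair differed by 0.175 for Gbp2, 0.155 for Gbp6 and 0.157 for Gbp7. Over 5295 genes with such a pair above the floor on both arrays, this difference had an SD of 0.58 and a median size of 0.33. The GBP pairs therefore differed less than the median pair, although probe sets of a gene read the same RNA mixtures and are no replicates.

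That SD was set beside the order of the 6 log2 ratios as a scale only. It covers disagreement between probe sets of a gene and not spread between arrays or experiments, so it cannot establish the order. With the floor at the 75th percentile Gbp6 came to 3.82, a lower bound, and Gbp2 to 4.44. The steps from Gbp6 (5.50) to Gbp2 (4.44), from Gbp2 to Gbp7 (3.63) and from Gbp7 to Gbp8 (2.66) were 1.06, 0.82 and 0.97, each larger than 0.58. The steps from Gbp8 to the bound of Gbp2b (2.18) and on to Gbp3 (1.60) were 0.48 and 0.578, not larger than the SD of 0.581, and the place of Gbp2b is open upward because it is a bound. The log2 ratios of Gbp8 and Gbp3 differed by 1.06. The 2 chromosome clusters overlapped in their ratios, since Gbp2 lay between Gbp6 and Gbp8.

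**Figure D2:**
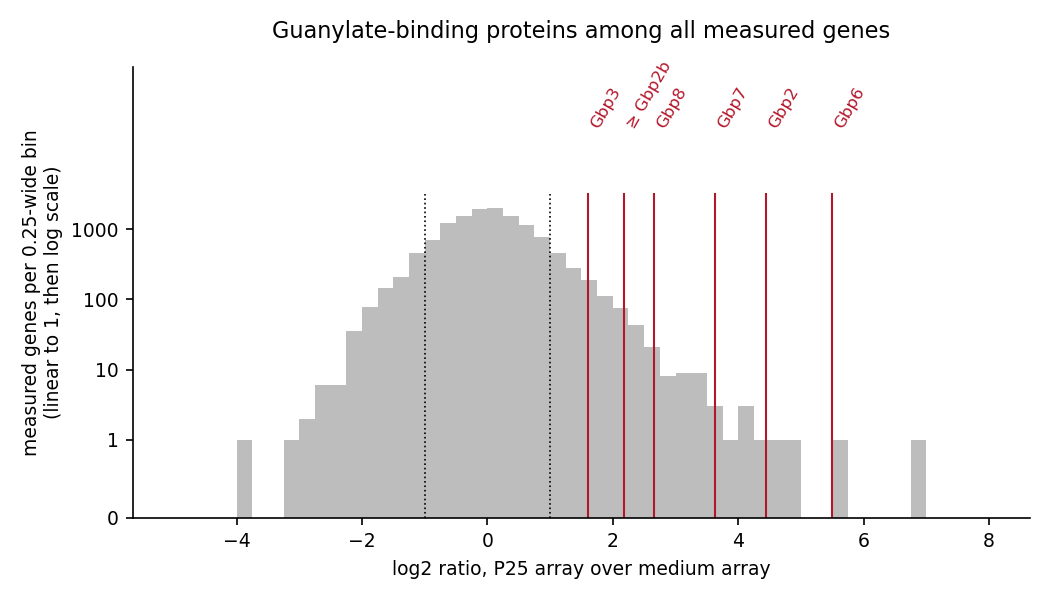
Number of measured genes (log axis above 1) in 0.25-wide bins of the log2 ratio of P25 over medium, with the 6 GBP genes as red lines and 2-fold as dotted lines. The GBP genes lie from 1.60 to 5.50, right of the 2-fold line, and the one marked ≥ is a lower bound.

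Promoter windows were available for 4 members, all on chromosome 3, and they are shown because these genes were higher together and interferon-responsive genes are known to carry the interferon-stimulated response element (ISRE). Each window runs from 250 bases before to 50 bases after an annotated start site on the plus strand of GRCm38.p6, from RefSeq. Capitals mark matches to the ISRE core (GAAA, any 2 bases, GAAA), searched on both strands, and every match here was to its reverse complement. The windows are chr3:142620413-142620712 (Gbp2), chr3:142530086-142530385 (Gbp7), chr3:142594597-142594896 (Gbp2b) and chr3:142559794-142560093 (Gbp3).
Gbp2: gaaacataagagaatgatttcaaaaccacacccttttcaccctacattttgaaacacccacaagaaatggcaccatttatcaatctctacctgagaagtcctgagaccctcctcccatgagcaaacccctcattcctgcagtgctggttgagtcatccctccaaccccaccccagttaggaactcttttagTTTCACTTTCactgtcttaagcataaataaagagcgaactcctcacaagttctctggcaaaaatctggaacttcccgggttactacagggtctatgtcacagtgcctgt
Gbp7: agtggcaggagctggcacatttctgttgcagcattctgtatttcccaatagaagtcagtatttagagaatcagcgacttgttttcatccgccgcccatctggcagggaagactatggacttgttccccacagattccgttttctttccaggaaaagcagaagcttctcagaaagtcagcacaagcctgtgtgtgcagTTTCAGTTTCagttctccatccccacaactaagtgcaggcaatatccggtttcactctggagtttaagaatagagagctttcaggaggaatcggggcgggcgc
Gbp2b: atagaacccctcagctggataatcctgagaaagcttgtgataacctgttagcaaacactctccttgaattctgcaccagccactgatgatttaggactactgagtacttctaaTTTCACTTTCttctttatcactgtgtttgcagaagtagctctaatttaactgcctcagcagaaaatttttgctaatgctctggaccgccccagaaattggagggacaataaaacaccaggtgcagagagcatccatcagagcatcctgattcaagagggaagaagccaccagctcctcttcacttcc
Gbp3: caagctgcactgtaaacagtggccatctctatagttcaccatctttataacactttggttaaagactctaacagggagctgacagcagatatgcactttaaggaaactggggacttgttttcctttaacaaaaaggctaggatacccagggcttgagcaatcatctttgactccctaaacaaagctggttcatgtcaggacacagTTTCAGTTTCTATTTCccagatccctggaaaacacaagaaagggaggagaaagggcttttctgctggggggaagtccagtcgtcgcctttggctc

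A core match stood in a window of 4 of 4 members, against 3.99% of 27025 RefSeq genes with a window of the same length. Counted by window, the share was 3.44% of 32851 windows. In Gbp2 the matched bases were TTTCACTTTC and ended 50 bases before the start site. In Gbp7 they were TTTCAGTTTC and ended 44 bases before it. In Gbp3 a pair of overlapping matches, TTTCAGTTTC and TTTCTATTTC, ended 36 and 30 bases before it, and a further annotated start of Gbp3 had none in its window. In Gbp2b the match, TTTCACTTTC, lay farther out and ended 128 bases before the start. Gbp2b also differed in lacking the longer form in which the core is followed by CT, a pattern chosen after the windows were seen. The other 3 carried it, against 0.303% of RefSeq genes with a window and 0.271% of all windows. The γ-activated site pattern TTCNNNGAA reads the same on both strands and does not overlap the core matches here. It occurred in 1 of 4, Gbp7, as TTCCAGGAA and TTCTCAGAA, against 9.55% of RefSeq genes with a window and 8.30% of all windows. A match is a description of letters, and whether the matches bear on the ratios was not tested.

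**Figure D3:**
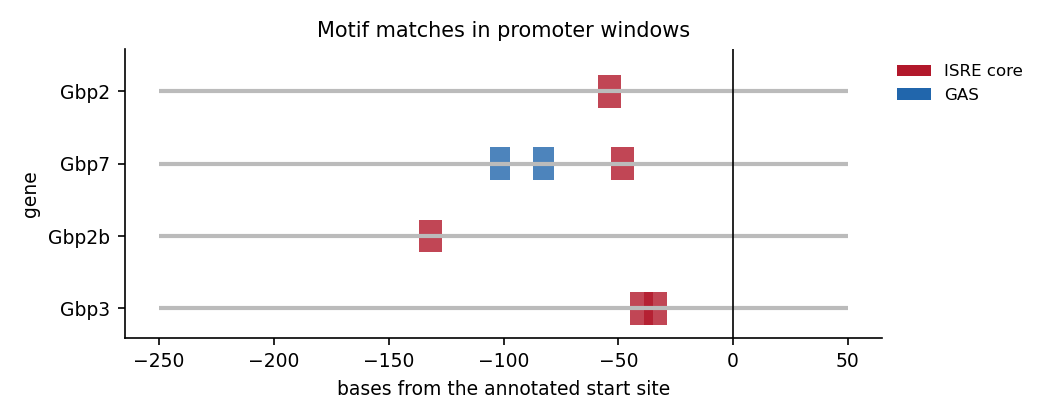
Places of matches to the ISRE core (red) and the γ-activated site (blue) in the promoter windows of 4 GBP genes, in bases from the annotated start site (vertical line). Matches to the core end 30 to 50 bases before the start in Gbp2, Gbp7 and Gbp3, and 128 bases before it in Gbp2b.

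None of the measured genes flanking the clusters passed 2-fold on the deposited scale, against 9.43% of all measured genes on the higher side and 7.22% on the lower. With so few flanking genes, none past 2-fold is near those shares. Of the 12 protein-coding genes next to the clusters, 3 on either side of each and chosen by position after the data were seen, 7 were measured, with a median log2 ratio of -0.11. Kyat3, which lies next to Gbp2 and encodes an aminotransferase, came closest at 1.93-fold higher (131 against 68.1), and passed the threshold with the arrays brought to one median (2.13-fold), to one spike-in level (2.14-fold) or after loess (2.18-fold). Gtf2b, the gene of transcription factor IIB, had a log2 ratio of 0.12, and Abcg3, next to Gbp8, had -0.11. Lrrc8c, which encodes a subunit of volume-regulated anion channels, had the lowest log2 ratio, -0.96.

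Of the other interferon-inducible GTPases, most were also far higher with P25. Of 13 listed, 8 had a probe set with a single symbol and 7 were measured. The 6 above the floor on both arrays all passed 2-fold on the higher side, against 9.89% of all such genes. Gm4951 was measured through the P25 array alone and so could only count as higher. With its bound, the median log2 ratio of the 7 was 3.32. The immunity-related GTPase Iigp1 had the highest ratio, 124.7-fold, above that of Gbp6, and Igtp was 23.0-fold higher, between Gbp6 and Gbp2. Irgm1 (10.6-fold), Irgm2 (9.99-fold) and Ifi47 (9.47-fold) lay between Gbp7 and Gbp8. Mx1, an antiviral GTPase of the dynamin superfamily like the GBPs, was 2.25-fold higher. Gm4951 was lowest at no less than 2.12-fold, a bound, and Mx2 was below the floor on both arrays. With 2 arrays the only pattern a gene can share is its ratio. The 5 other genes above the floor on both arrays whose log2 ratio was nearest to the GBP median of 3.14 were Zbp1 (3.14), Ifit1 (3.11), Ifit3 (3.21), Shmt1 (3.06) and Plpp1 (3.24), and 28 genes lay within 0.5 of it. Zbp1, Ifit1 and Ifit3 are interferon-inducible, Shmt1 is an enzyme of one-carbon metabolism, and Plpp1 encodes a lipid phosphatase.

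Along the interferon pathway, receptors and kinases did not share the higher signal of the GBPs, while transcription factors and feedback inhibitors partly did. Of 15 measured genes of this list, 4 passed 2-fold on the higher side and 0 on the lower. Over all measured genes these shares were 9.43% and 7.22%, and for so few genes 0 on the lower side is near that share. Batf2, among the 4, was measured through the P25 array alone and so could only count as higher. The median log2 ratio was -0.27. The interferon-γ receptor chains had log2 ratios of -0.42 (Ifngr1, 175 against 234) and -0.80 (Ifngr2, with 0.61 on its other probe set), and the kinases Jak1 and Jak2 had -0.79 and -0.60. The lowest of the list was the type I interferon receptor chain Ifnar1 at -0.97, with -1.40 on its other probe set. Irf1, a transcription factor that binds the ISRE, had a signal of 3047 with P25 and 482 with medium, or 6.32-fold. Irf8, Irf9 and Stat2 were higher by less than 2-fold, at log2 ratios of 0.54, 0.73 and 0.86. The feedback inhibitors Socs1 (16.4-fold) and Socs3 (4.01-fold) were higher, and Batf2 was at least 2.94-fold higher. With one median or one spike-in level the list had 5 genes at least 2-fold higher and a median of -0.13 or -0.12.

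Genes of the machinery that GBPs act with were mostly within 2-fold, as were most measured genes. Over all measured genes 9.43% passed 2-fold on the higher side and 7.22% on the lower. For lists this small, the counts below are near those shares. Conjugation of ATG8 proteins to membranes is known to direct GBPs to pathogen vacuoles. Of 12 measured genes of that list, 0 passed 2-fold on the higher side and 1 on the lower, Map1lc3a, at a log2 ratio of -1.58 (95.5 against 285). Sqstm1, the next lowest, had -0.70, and the highest were Atg7 (0.24) and Atg3 (0.19), which belong to the conjugation enzymes. Of 7 genes for the supply and attachment of prenyl groups, 1 was at least 2-fold higher, Fdps, which makes farnesyl diphosphate (5.25-fold, 1321 against 252). The farnesyltransferase subunit Fntb was 1.72-fold higher (41.2 against 24.0), and Pggt1b and Rce1 had the lowest log2 ratios, -0.30 and -0.51. Other probe sets of Pggt1b ranged from -0.14 to 0.54. Of 9 measured inflammasome genes (median log2 ratio 0.42), 2 passed 2-fold on the higher side and 0 on the lower. Those past it were Il1b (2.89-fold, 96.1 against 33.2) and the sensor gene Nlrp3 (2.60-fold), which was close to the floor on the medium array (28.0 against 10.8). The cell death effector Ninj1 and Il18 had the lowest log2 ratios, -0.07 and -0.08. Other probe sets of Ninj1 ranged from -0.11 to 0.62.

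**Figure D4:**
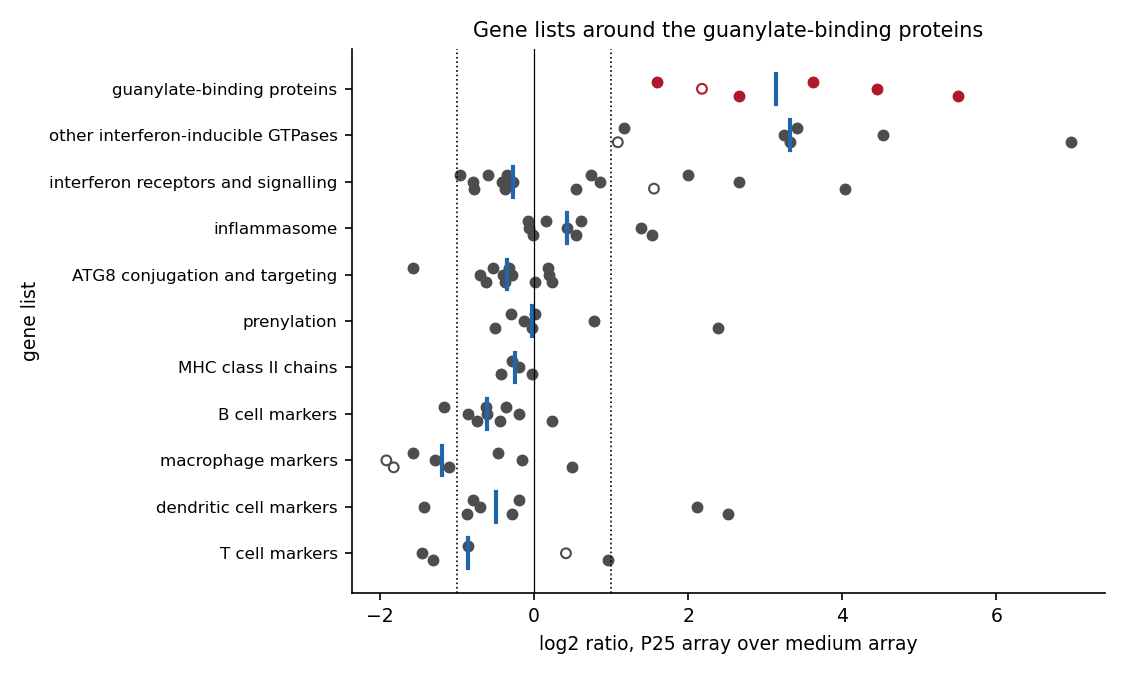
Log2 ratio of P25 over medium of each measured gene (points, open where 1 array was at the floor) in 11 gene lists, with the list median as a blue bar and 2-fold as dotted lines. Only the GBP and other GTPase lists lie wholly beyond 2-fold higher, among the lists shown. The T cell activation list, not shown, had 3 measured genes, all also beyond 2-fold higher.

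Markers of the labelled cells were present. The MHC class II genes Cd74, H2-Aa, H2-Ab1 and H2-Eb1 had signals of 4795 or more on both arrays, with log2 ratios from -0.43 to -0.03. Of the B cell markers 9 of 9 were above the floor on both arrays, with a summed signal of 23233 with P25 and 31802 with medium, a median log2 ratio of -0.61, Ms4a1 highest (0.23) and Ebf1 lowest (-1.17). Macrophage markers, 8 of 10 measured, had a summed signal of 528 with P25 and 1269 with medium and a median log2 ratio of -1.19. Fcgr1 was highest (0.49, with -0.42 on its other probe set) and C1qb lowest (-1.92, a bound). C1qa and C1qc were below the floor on both arrays. Of the dendritic cell markers 8 of 9 were measured, and 6 of these 8 had a log2 ratio below 0, with a median of -0.50 and Sirpa lowest (-1.43). Zbtb46 (5.72-fold) and Ly75 (4.32-fold, 232 against 53.6) were higher, and with them the list summed to 501 with P25 and 432 with medium. Neutrophil markers, 8 of 8 above the floor on both arrays, summed to 6901 with P25 and 12788 with medium, with log2 ratios from -1.98 (Mpo) to -0.60 (S100a8). Of 8 plasmacytoid dendritic cell markers 5 had a log2 ratio below 0, among them Siglech (-1.07) and Ccr9, the lowest (-1.26), and the sums were 6432 with P25 and 5970 with medium. Irf7 and Bst2 of that list, both also interferon-inducible, were 4.69-fold and 4.26-fold higher. Of 6 erythroid markers 3 were below the floor on both arrays, the sums were 76.5 and 63.8, and log2 ratios ran from -0.40 (Epor) to 0.65 (Car1). Which cells carried the GBP signal was not tested, and in such bulk RNA fewer cells of a type and less RNA per cell cannot be told apart.

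T cells also express GBPs, so their markers are given beside the GBP result. Of 9 T cell markers with a probe set, 5 were measured, with a summed signal of 119 with P25 and 194 with medium over the list. Cd3e, Cd3d and Cd4 were below the floor on both arrays, Cd3g had 21.6 and 11.1, and Il7r had the lowest log2 ratio, -1.46. Natural killer cell markers summed to 102 with P25 and 142 with medium, with Ncr1 and Eomes below the floor on both arrays, Nkg7 highest (0.57) and Klrd1 lowest (-1.55). Ifng itself was below the floor on both arrays (10.03 against 7.84), as were Il2, Il21 and Cd40lg. The other 3 genes of this T cell activation list were all higher with P25. Tbx21, a T helper 1 transcription factor, had a signal of 687 against 41.3, Il2ra, a chain of the interleukin-2 receptor, 122 against 25.6, and Tnf 85.1 against 18.6. Whether these signals came from APCs or T cells was not tested.

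The medium signals set the limits of these ratios. With the floor at the 60th percentile Gbp2b came to a log2 ratio of 0.27, and with the floor at the 75th percentile it was not measured, Gbp6 came to 3.82 and Gbp8 to 1.84. Members share sequence, and the single probe set of Gbp3 and the second one of Gbp2 carry suffixes for probe sets that may match more than 1 transcript, so signal shared between relatives was not tested.

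**Figure D5:**
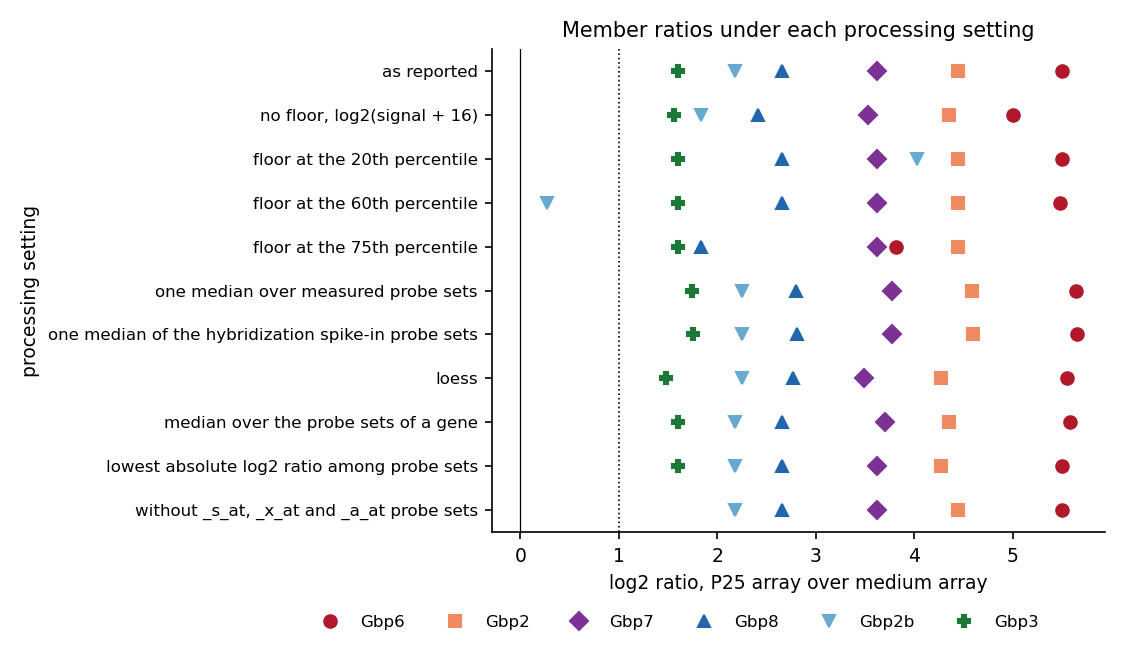
Log2 ratio of P25 over medium of each GBP gene (symbols) as reported and under 10 other processing settings (rows), with 2-fold as a dotted line. Gbp2 ranges from 4.27 to 4.60, Gbp7 from 3.49 to 3.78 and Gbp3, which has no value in the bottom row, from 1.48 to 1.75. Gbp2b ranges from 0.27 to 4.03, and Gbp6 and Gbp8 move with the floor at the 75th percentile.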

How the data were processed

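Biotin-labelled cRNA from 1 µg of total RNA was hybridised to 1 array per group, per the labels' protocols. The authors deposited 1 signal intensity per probe set, from the MAS5 method in the GCOS software, as the submitters' processing notes name them. They are linear and never negative. Versions, detection calls and the scaling target were not given in the sources used here. Because MAS5 subtracts the signal of mismatch probes, dim probe sets give noisy ratios. Each array held 45101 probe sets (64 controls), with 2% trimmed means of 124.7 (P25) and 117.5 (medium). The median log2 ratio of 18 spike-in controls was -0.15.

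Log2 ratios were computed in Python 3.11.15 with pandas 2.3.3 from values raised to the floor, the 40th percentile. Symbols were updated by Entrez number through RefSeq (GRCm38.p6). The ratio was tested on simulated arrays. All GBP probe sets, list extremes and the 5 genes nearest in ratio were named. The members and lists were chosen with earlier results of these data known. Alternatives changed the floor, scaling and probe sets.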

Additional observations from a re-analysis of the deposited data

How the results depend on the processing

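Under the 10 other settings, which process the same 2 arrays again, every GBP gene that was measured kept a log2 ratio above 0. A gene measured through the P25 array alone could only be above 0. This held for Gbp2b in every setting with a floor where it was measured. It also held for Gbp6 with the floor at the 60th or 75th percentile and for Gbp8 with the floor at the 75th. The count of genes at least 2-fold higher was 6 in all but 3 of them, and was 5 with the floor at the 60th or 75th percentile and without probe sets of shared or alternative transcripts, where Gbp3 had none left. The median log2 ratio moved by more than the probe set SD in 1 setting, to 3.83 with the floor at the 20th percentile, where Gbp2b came to 4.03. Medians elsewhere stayed between 2.97 and 3.63. One median or one spike-in level moved the median of all genes from 0.02 to 0.15 or 0.16. No paired analysis was possible because each group had 1 array.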

Other observations

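The longer ISRE form (GAAA, any 2 bases, GAAA, then CT), which Gbp2, Gbp3 and Gbp7 carry, was looked up in the other measured genes with a RefSeq promoter window, after the GBP windows had been seen. Of 35 such genes, 10 (28.6%) passed 2-fold on the higher side and 4 on the lower. Of 10392 genes without the longer form 9.45% passed 2-fold on the higher side. Over all measured genes 7.22% passed 2-fold on the lower side. BC147527, among the 10, was above the floor on the P25 array alone. Cd46 and Fcgr4, among the 4, were above it on the medium array alone. The direction of these genes was therefore fixed by the floor, and the counts include them. The median log2 ratios were 0.37 with the longer form and 0.02 without it. The highest were the chemokine gene Cxcl10 (29.2-fold), the GTPase gene Irgm1 (10.6-fold), Ifit3 (9.24-fold) and Ifit1 (8.61-fold). The antiviral genes Oas1a and Trim30a carried it with log2 ratios of 0.75 and 0.89, Apobec3 had -0.17, and the lowest were Tgfbi, which encodes a matrix protein (-1.29), and the Fc receptor gene Fcgr4 (-1.38, a bound). With the core alone 49 of 365 other genes (13.4%) passed 2-fold on the higher side, against 9.37% of those without it.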
